A study of Mus musculus with 12 samples.

Results

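The genes described here encode 5 families of enzymes that modify drugs, pollutants, steroids, bile acids, retinoids and reactive aldehydes. A rule took them by symbol and used no measured value, but it was set with earlier results of these data known. The families are cytochromes P450 (Cyp and a digit), glutathione transferases (Gst of the alpha, mu, pi, theta, omega, zeta and kappa classes), UDP-glucuronosyltransferases (Ugt), sulfotransferases (Sult) and aldehyde dehydrogenases (Aldh). The retinoic acid hydroxylase Cyp26a1 was left out by the same rule. In all 88 of the 9212 measured genes were members, each with 1 probe: 43 Cyp, 17 Gst, 6 Ugt, 10 Sult and 12 Aldh genes. A further 2 probes that name several genes list such an enzyme among them and were not assigned.

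The samples were mouse embryonic stem (ES) cells of the R1 line, kept undifferentiated on gelatin with leukemia inhibitory factor, and embryoid bodies (EB) made from them. EB are aggregates of ES cells that differentiate without a directed signal, and here they were dissociated and plated in medium with fetal bovine serum for 4, 8, 15 or 21 days. Each of 12 arrays carried ES RNA in 1 channel and EB RNA in the other, with 3 arrays a day. No group carried a genetic change or a treatment, and R1 is a single cell line, so all groups share its genotype. Whether a day's arrays stem from separate cultures is not stated, and p-values therefore cover only the spread among arrays, which may be technical.

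These enzymes act in sequence. Cytochromes P450 add oxygen to a lipid-soluble compound, aldehyde dehydrogenases oxidise aldehydes to acids, and the transferases then attach glutathione, glucuronic acid or sulfate, which makes the product soluble and ready for export. Many family members are best known from adult liver, intestine or steroid-making glands, whereas Gstm1, Gstp1 and Aldh2 are active in many tissues.

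Values are log ratios as deposited, read here as log2, with positive taken to mean more RNA in EB than in ES cells. That direction is likely and not settled. The label protocols give Cy5 to EB RNA, whereas the dye fields state the reverse and the titles name ES first. Marker genes decided between them. ES cell markers were negative (9 of 10 called lower at day 21, list median -1.73) and markers of visceral endoderm and liver positive (13 of 16 called higher, list median 1.01), so neither list supports the direction independently. Under the opposite reading, higher and lower swap places throughout. A gene is called where limma's adjusted p over all 10689 features was under 0.05. The probes without a gene symbol split the arrays into a first set of 7 and a second set of 5 (day 4 array 3, day 8 arrays 2 and 3, and array 3 of days 15 and 21), and arrays of the second set are named below where they stood apart.

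At day 21, where 18.7% of all features were called, 5 of 17 glutathione transferases were higher (Gstm1, Gstm2, Gsta3, Gstm6 and Gsta2) and 2 lower (Gsta4 and Gstt2). Gstp1 was called higher at day 8. Of the 43 cytochromes P450, 1 was higher (Cyp3a13) and 4 were lower (Cyp4a14, Cyp4a10, Cyp2b19 and Cyp4f14) at day 21. Of 10 sulfotransferases 2 were lower (Sult1c2 and Sult4a1), of 12 aldehyde dehydrogenases 1 was lower (Aldh2), and none of 6 glucuronosyltransferases passed.

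Over the 88 members calls were about as frequent as over the whole array. At day 4 no member passed with limma and neither did any other feature (0%), while 12 members and 1081 of all features had an unadjusted p under 0.05. Under other settings of limma 0 to 2 members passed at day 4. At day 8, 1 member was higher and 1 lower, beside 1.23% and 1.06% of all features, or 2.28% in either direction. At day 15, 4 were higher and 3 lower, beside 5.66% and 4.9%. At day 21, 6 were higher and 9 lower, beside 8.78% and 9.93%, and after quantile normalization the split was 4 higher and 3 lower. Without day 21 array 1 the count was 5, and without array 2 it was 6. For these fits, and for the other settings at day 4, the share of all features is not given here. The median over the 88 members stayed near 0 on every day, from -0.02 at day 4 to 0.01 at day 21, where all features had 0.00. By family the share called at day 21 was 41.2% of Gst, 20% of Sult, 11.6% of Cyp, 8.33% of Aldh and 0% of Ugt genes, against 18.7% of all features. These shares are a description, since members of a family are not replicates.

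**Figure D1:**
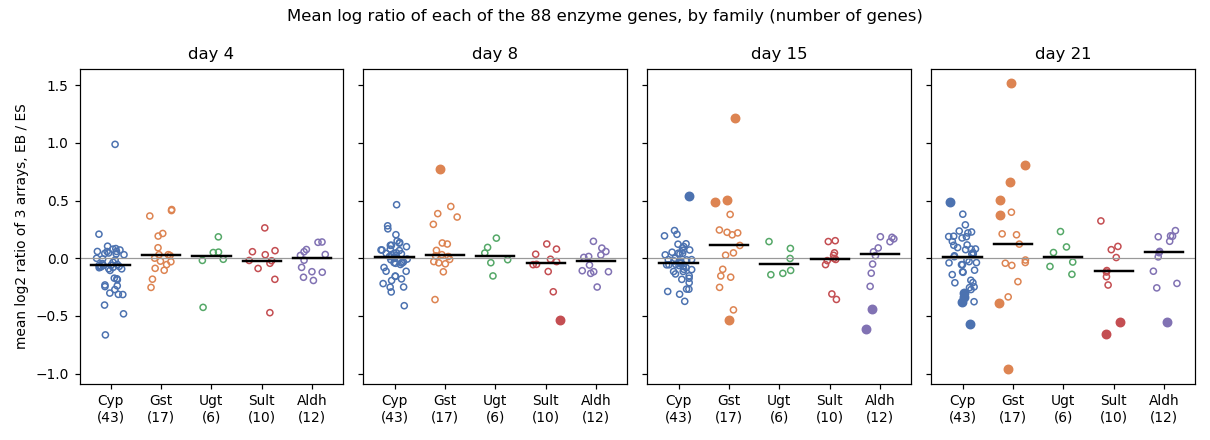
Mean log2 ratio of EB over ES (vertical axis, 3 arrays) for each of the 88 enzyme genes, by family and day. Filled points were called and black bars are family medians. All family medians lie close to 0, and the widest values at day 21 are those of Gst genes, from -0.96 to 1.52.

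The mu class of glutathione transferases holds cytosolic enzymes that conjugate epoxides and other electrophiles. Of its 5 measured genes 3 were called higher at day 21, Gstm1, Gstm2 and Gstm6, beside 8.78% of all features. Gstm1 measured -0.01, -0.43 and 0.34 on the 3 arrays of day 4 and -0.35, 0.64 and 1.05 at day 8. It then measured 1.50, 1.20 and 0.94 at day 15, and 1.55, 1.51 and 1.49 at day 21. The late arrays all lay above every array of day 4, while those of day 8 were split, with array 1 below 0 and arrays 2 and 3, of the second set, above it. Gstm1 rose by 1.21 ± 0.28 at day 15 (SD, n = 3, limma adjusted p = 0.00377) and by 1.52 ± 0.03 at day 21 (adjusted p = 4.89e-04). The difference between day 21 and day 4 was 1.55 (SE 0.30, adjusted p = 0.0106), and its adjusted p was 0.0348 for any difference between the 4 days. That last call was lost without any 1 of 8 arrays, with an adjusted p of up to 0.108, and it held without each of the other 4.

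Gstm2, the neighbour of Gstm1 in gene order, measured 0.01, 0.07 and 0.20 at day 4 and -0.02, 0.32 and 0.58 at day 8. At day 15 it measured 0.74, 0.47 and 0.26, and at day 21 it reached 0.73, 0.79 and 0.91. The arrays of days 15 and 21 all exceeded those of day 4. It rose by 0.49 ± 0.24 at day 15 (adjusted p = 0.0165) and by 0.81 ± 0.09 at day 21 (adjusted p = 5.12e-04). The day 15 call was lost without array 1 or array 2 of that day (adjusted p up to 0.158). Day 21 exceeded day 4 by 0.72 (SE 0.16, adjusted p = 0.0201), a call that was lost without day 4 array 1 or any 1 array of day 21, where the adjusted p reached 0.0797.

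Gstm6 measured 0.60, 0.62 and 0.28 at day 15 and 0.65, 0.63 and 0.23 at day 21, against -0.25, 0.07 and 0.02 at day 4. Array 3 of both late days, of the second set, was the lowest of its day. The mean was 0.50 ± 0.19 at day 15 (adjusted p = 0.0403) and 0.51 ± 0.24 at day 21 (adjusted p = 0.0259). The day 15 call was lost without any 1 of 6 arrays (adjusted p up to 0.249) and the day 21 call without array 1 or array 2 of that day (adjusted p up to 0.164). Gstm4 stood at 0.21 ± 0.04 at day 21, just short of the threshold (adjusted p = 0.0509), and Gstm5 at -0.02 ± 0.13 (adjusted p = 0.936).

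In the RefSeq gene order of mouse chromosome 3 the measured mu genes lie as Gstm5, Gstm6, Gstm2, Gstm1 and Gstm4, with the unmeasured Gstm7 and Gstm3 among them. Along that order the day 21 means were -0.02, 0.51, 0.81, 1.52 and 0.21, so the highest ratio lay inside the cluster and both ends were lower. Genes of the class are close copies of one another. Probe sequences were not used here, so a probe may also have bound RNA of a neighbouring copy, and how far the 5 ratios are separate was not tested.

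The promoters of the mu genes that rose are shown because those genes moved together, beside Gsta3 and Gstp1, which followed other courses. Each line gives the 250 bases before the start site that lies farthest upstream in RefSeq (build GRCm38.p6), 5′ to 3′ on the strand of the gene. They cover chr3:108017974-108018223 (minus strand), chr3:107986421-107986670 (minus), chr3:107953467-107953716 (minus), chr1:21240335-21240584 (plus) and chr19:4037913-4038162 (minus). Capitals mark motifs on either strand. They are the antioxidant response element core TGACNNNGC, bound by the transcription factor Nfe2l2, and the GCGTG core of the dioxin receptor Ahr site. The 2 motifs did not overlap here.
Gstm1: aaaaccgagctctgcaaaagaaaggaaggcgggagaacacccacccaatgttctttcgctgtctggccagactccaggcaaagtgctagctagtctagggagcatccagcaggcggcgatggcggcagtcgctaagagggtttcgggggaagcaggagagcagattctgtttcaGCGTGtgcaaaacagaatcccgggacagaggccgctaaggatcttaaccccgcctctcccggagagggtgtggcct
Gstm2: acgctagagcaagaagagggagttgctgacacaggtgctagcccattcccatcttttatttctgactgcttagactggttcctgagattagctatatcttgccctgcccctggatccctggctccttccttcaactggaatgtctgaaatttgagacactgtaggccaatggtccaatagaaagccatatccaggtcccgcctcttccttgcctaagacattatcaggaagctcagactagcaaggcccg
Gstm6: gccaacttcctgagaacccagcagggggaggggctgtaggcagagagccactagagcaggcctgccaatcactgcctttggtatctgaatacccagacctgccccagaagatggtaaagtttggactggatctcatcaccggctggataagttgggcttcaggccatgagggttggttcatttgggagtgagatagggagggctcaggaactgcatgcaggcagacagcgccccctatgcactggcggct
Gsta3: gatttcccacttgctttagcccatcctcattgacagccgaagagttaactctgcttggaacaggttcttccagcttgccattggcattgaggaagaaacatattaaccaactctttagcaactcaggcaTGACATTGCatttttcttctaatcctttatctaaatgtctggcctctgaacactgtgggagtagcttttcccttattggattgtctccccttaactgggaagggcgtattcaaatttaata
Gstp1: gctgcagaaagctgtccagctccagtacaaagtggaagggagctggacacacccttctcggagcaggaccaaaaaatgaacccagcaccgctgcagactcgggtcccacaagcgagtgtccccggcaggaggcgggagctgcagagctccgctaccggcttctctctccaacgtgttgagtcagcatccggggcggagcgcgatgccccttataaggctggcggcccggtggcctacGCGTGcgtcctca

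Gsta3 held 1 antioxidant core 121 bases before the start site, Gstm1 1 dioxin receptor core at 76 bases and Gstp1 1 at 13 bases. The windows of Gstm2 and Gstm6 held neither set of letters. Over windows of 300 bases, 250 before and 50 after a start site, 8 of 85 member windows (9.41%) held TGACNNNGC, against 12.4% of 32851 windows of all genes. The core GCGTG was in 26 (30.6%), against 32.4% of all windows. The direct repeat bound by the liver factor Hnf4a was in none of the members' windows and in 0.0396% of all. Windows were found for 69 of the 88 members and 11 of the 17 called on any day. They are a description of letters, and no binding was measured.

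The alpha class split. Gsta4, which conjugates the lipid peroxidation product hydroxynonenal, measured 0.47, 0.40 and 0.40 at day 4 and -0.07, -0.08 and -0.20 at day 8. It measured -0.60, -0.68 and -0.33 at day 15 and -0.94, -0.90 and -1.05 at day 21. The arrays of each day lay entirely below those of the day before, so the 4 groups did not overlap at any step. Gsta4 fell by 0.54 ± 0.18 at day 15 (adjusted p = 0.00143) and by 0.96 ± 0.08 at day 21 (n = 3, adjusted p = 1.57e-05), the smallest adjusted p of any member in that comparison. Day 21 lay below day 4 by a difference of -1.38 (SE 0.11, adjusted p = 5.41e-05), and the 4 days differed with an adjusted p of 3.23e-04. These calls and those of days 15 and 21 held without each of the 12 arrays in turn.

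At day 4 Gsta4 was 0.42 ± 0.04 with all 3 arrays positive and was not called (adjusted p = 0.102). It passed there after quantile normalization (0.64, adjusted p = 0.0134), scaling (0.51, adjusted p = 0.0252), with array weights (0.44, adjusted p = 0.016) and in a fit that included the array set (0.43, adjusted p = 0.035). Over all its alternatives the adjusted p at day 4 ran from 0.0134 to 0.64.

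Gsta3 and Gsta2, alpha class enzymes of liver detoxication, went the other way. Gsta3 measured 0.00, 0.16 and -0.07 at day 4, -0.28, 0.12 and 0.07 at day 8, and -0.03, 0.54 and 0.23 at day 15. At day 21 it measured 0.67, 0.78 and 0.54, above every array of days 4 and 8, while array 3 of day 21 and array 2 of day 15 lay at the same level to 2 decimals. It rose by 0.66 ± 0.12 at day 21 (adjusted p = 0.00162), a call that held without each of the 12 arrays. Day 21 exceeded day 4 by 0.63 (SE 0.15, adjusted p = 0.0336), which was lost without day 4 array 1 or 3 or day 21 array 1 or 2 (adjusted p up to 0.123). Gsta2 measured 0.44, 0.54 and 0.13 at day 21, with array 3 of the second set lowest, and rose by 0.37 ± 0.21 (adjusted p = 0.00975). That call was lost without array 1 or array 2 of day 21. Gsta1 was -0.04 at day 21 and was called on no day.

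Gstp1, the pi class enzyme that is abundant in many embryonic and adult cells, had its highest value at day 8. It measured 0.05, 0.38 and 0.81 at day 4 and 0.86, 0.78 and 0.68 at day 8. At day 15 it was -0.05, -0.04 and -0.20, and at day 21 -0.48, -0.39 and -0.14. All 6 arrays of the late days lay below all 6 of the early days. The rise of 0.78 ± 0.09 at day 8 was called (adjusted p = 0.0132), the only higher call of a member on that day, and was lost without day 8 array 2 or array 3 (adjusted p up to 0.104). The difference of -0.87 between day 15 and day 8 was not called (SE 0.17, adjusted p = 0.0732), nor was the value of -0.34 ± 0.18 at day 21 (adjusted p = 0.0667). The days differed (adjusted p = 0.0107), and day 21 lay below day 4 by a difference of -0.75 (SE 0.17, adjusted p = 0.0213). That second call was lost without day 4 array 3 or day 21 array 1 or 2 (adjusted p up to 0.1).

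Of the theta class, which acts on small halogenated compounds, Gstt2 measured 0.19, 0.51 and 0.37 at day 8 and -0.51, -0.59 and -0.05 at day 21. It was lower by -0.38 ± 0.29 at day 21 (adjusted p = 0.042), and the call was lost without any 1 of 6 arrays (adjusted p up to 0.254). Gstt3 was positive on all 12 arrays, with 0.40 ± 0.13 at day 21, and was not called (adjusted p = 0.067). Gstt1, Gstt4, Gsto1 of the omega, Gstz1 of the zeta and Gstk1 of the kappa class were called on no day. Gstk1 measured 1.52 on day 4 array 2 and between -0.81 and 0.24 on the other 11 arrays.

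**Figure D2:**
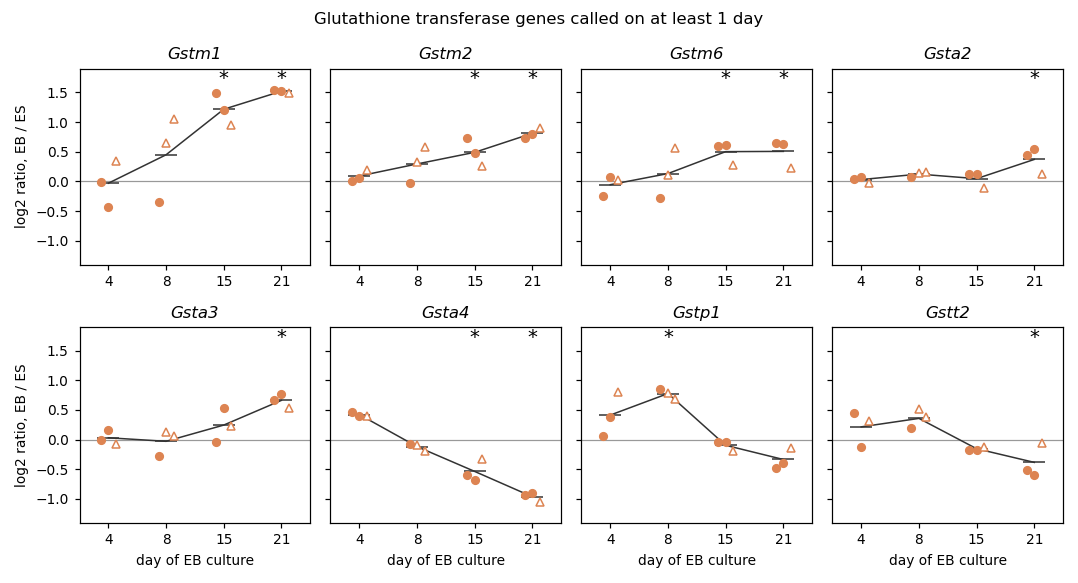
Log2 ratio of EB over ES on each array (points) and the mean of each day (line) for the 8 Gst genes called on at least 1 day, marked with an asterisk over the called days. Open triangles are arrays of the second set. Gstm1 climbs to 1.52 at day 21, Gsta4 descends from 0.42 to -0.96, and Gstp1 has its highest mean, 0.78, at day 8.

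Between days, 5 of 88 members differed from day 4 to day 21, 3 of them higher and 2 lower, beside 2.62% and 3.22% of all features, or 5.84% in either direction. All 5 were Gst genes: Gstm1, Gstm2, Gsta3, Gsta4 and Gstp1. After quantile normalization and after scaling only Gsta4 remained of the 5, so the split became 0 higher and 1 lower. Any difference between the 4 days was called for 3 members, Gsta4, Gstp1 and Gstm1, beside 2.9% of all features. Of these 3 only Gsta4 kept that call after quantile normalization. Between day 15 and day 8 limma called 0 members, beside 0.131% of all features higher, 0.0468% lower and 0.178% in either direction. There 7 members had an unadjusted p under 0.05, beside 985 of all 10689 features. Under other settings 0 to 6 members passed, and the share of all features under those settings is not given here. The arrays of day 21 lay all above those of day 4 for 13 members (beside 12.6% of all features) and all below for 9 (beside 12.2%). All 3 arrays of a day had 1 sign for 29 members at day 4, 35 at day 8, 40 at day 15 and 54 at day 21, beside 30.2%, 44.0%, 47.7% and 54.4% of all features.

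Cytochromes P450 of families 1 to 4 oxidise foreign compounds and fatty acids. Of these 31 genes 1 was higher and 4 were lower at day 21, beside 8.78% and 9.93% of all features. At day 15, 1 was higher, beside 5.66%. Cyp3a13, a member of the family that oxidises many drugs, measured 0.68, 0.65 and 0.28 at day 15 and 0.35, 0.82 and 0.30 at day 21, against 0.17, 0.11 and -0.11 at day 4. All late arrays lay above those of day 4. It rose by 0.54 ± 0.22 at day 15 (adjusted p = 0.0474) and by 0.49 ± 0.28 at day 21 (adjusted p = 0.0477). The day 15 call was lost without any 1 of 8 arrays (adjusted p up to 0.264) and the day 21 call without any 1 of 9 (adjusted p up to 0.301). Both calls were lost with the array set as a term (adjusted p = 0.056 and 0.0585). They were also lost with the replicate number as a block, after quantile normalization and after scaling.

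The omega-hydroxylases of fatty acids, in families Cyp4a and Cyp4f, were lower where they passed. Cyp4a14 was negative on all 12 arrays and measured -0.65, -0.82 and -0.24 at day 21, a mean of -0.57 ± 0.30 (adjusted p = 0.0121). Its means at days 4, 8 and 15 were -0.31, -0.41 and -0.37, none of them called. Its neighbour Cyp4a10 measured -0.18, -0.71 and -0.26 at day 21 and was lower by -0.38 ± 0.29 (adjusted p = 0.034), with array 2 the lowest. Cyp4f14 was negative on all 12 arrays too and stood at -0.30 ± 0.23 at day 21 (adjusted p = 0.0281). Each of these 3 calls was lost without array 1 or array 2 of day 21 (adjusted p up to 0.278). All 3 were also lost after quantile normalization and after scaling. Cyp4a12a did not follow them, with 0.24 at day 15 and -0.02 at day 21, neither of them called. Cyp4f15 was at -0.21 ± 0.04 at day 21 (adjusted p = 0.0569) and at 0.28 ± 0.10 at day 8 (adjusted p = 0.063).

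Cyp2b19, an epoxygenase of arachidonic acid known from skin, measured -0.41, -0.23 and -0.35 at day 21 and between -0.36 and 0.12 on the 9 earlier arrays. It was lower by -0.33 ± 0.09 (adjusted p = 0.0353), and the call was lost without any 1 array of day 21. The targets of the dioxin receptor Ahr, Cyp1a1, Cyp1a2 and Cyp1b1, stood at 0.01, 0.05 and -0.06 at day 21, and none was called on any day. Cyp2e1, the ethanol-inducible enzyme of liver, stood at -0.14 and Cyp3a11, the main drug-oxidising form of mouse liver, at -0.25 (adjusted p = 0.247). Signal intensities were not used here, so a ratio near 0 does not say whether a gene was expressed in both samples or in neither.

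The other 12 cytochromes P450 act on sterols, steroids and vitamin D, apart from Cyp20a1, whose substrate is not known. None was called on any day, and their means at day 21 ran from -0.27 to 0.29. Cyp11a1, which makes pregnenolone from cholesterol, stood at 0.29 ± 0.05 (adjusted p = 0.218) and Cyp17a1, which turns it towards androgens, at 0.23 ± 0.21 (adjusted p = 0.4). Cyp7a1, the rate-limiting enzyme of bile acid synthesis, stood at 0.25 ± 0.04 at day 8 (adjusted p = 0.124) and 0.19 ± 0.20 at day 21 (adjusted p = 0.14). Cyp51, of cholesterol synthesis, stood at -0.04 ± 0.17. Cyp24a1 and Cyp27b1, which inactivate and activate vitamin D, were at -0.27 and -0.25.

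Among aldehyde dehydrogenases Aldh2, the mitochondrial enzyme that clears acetaldehyde, was lower in late EB. It measured -0.09, -0.58 and 0.32 at day 4 and 0.01, 0.03 and 0.01 at day 8. At day 15 it measured -0.64, -0.72 and -0.47, and at day 21 -0.61, -0.58 and -0.47. The late arrays lay below those of day 8, and day 4 array 2 overlapped with them. Aldh2 fell by 0.61 ± 0.13 at day 15 (adjusted p = 0.00943) and by 0.56 ± 0.07 at day 21 (adjusted p = 0.00912). Each call was lost without array 1 or array 2 of its own day (adjusted p up to 0.102 and 0.0721). Aldh9a1, which oxidises aminoaldehydes, was called lower at day 15 (-0.44 ± 0.16, adjusted p = 0.0484), with negative means on the other days too (-0.19, -0.13 and -0.22), and the call was lost without any 1 of 9 arrays (adjusted p up to 0.2). Aldh1a1 and Aldh1a2, which make retinoic acid, stood at 0.15 ± 0.12 (adjusted p = 0.281) and 0.01 ± 0.07 (adjusted p = 0.939) at day 21.

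Of the sulfotransferases, Sult1c2 was lower at days 8 and 21. It measured -0.67, -0.68 and -0.25 at day 8, -0.65, -0.26 and -0.17 at day 15, and -0.58, -0.50 and -0.89 at day 21. All 12 of its values were negative, the smallest in size at day 4 array 2 (-0.04). It fell by 0.66 ± 0.20 at day 21 (adjusted p = 0.00264), a call that held without each of the 12 arrays. The call at day 8 (-0.53 ± 0.25, adjusted p = 0.0374) was lost without any 1 of 7 arrays (adjusted p up to 0.16). Sult4a1, a form found mainly in brain, measured -1.05, -0.42 and -0.17 at day 21, a mean of -0.55 ± 0.45 (adjusted p = 0.0108). Array 1 lay far below the others, and without it the mean was -0.30 and not called (adjusted p = 0.0946). Sult2b1, which sulfates cholesterol, stood at -0.47 ± 0.30 at day 4 (adjusted p = 0.224) and -0.23 ± 0.22 at day 21.

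The 6 glucuronosyltransferases lay between -0.14 and 0.23 at day 21, and none was called on any day. Ugt1a6b, of a locus that clears phenols, was highest at 0.23 (adjusted p = 0.0929), and Ugt1a1, the bilirubin enzyme, lowest at -0.14 (adjusted p = 0.33). Ugt8a, which makes myelin lipid rather than clearing compounds, measured -0.99 on day 4 array 2 and -0.03 ± 0.12 at day 21 (adjusted p = 0.893).

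**Figure D3:**
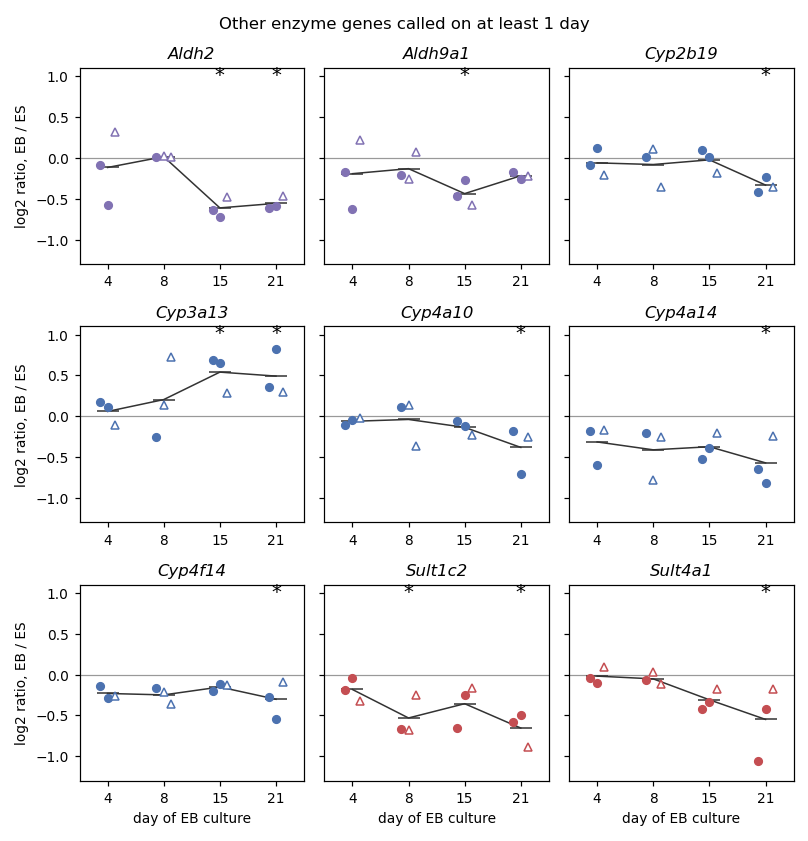
Log2 ratio of EB over ES on each array (points) and the mean of each day (line) for the 9 enzyme genes outside the Gst family called on at least 1 day, with an asterisk over the called days. Open triangles are arrays of the second set. Cyp3a13 lies above 0 at days 15 and 21, and the other 8 genes lie below 0 on the days marked.

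In total 17 members (19.3%) were called on at least 1 day, beside 22.6% of all features, and 71 on none. Of the 73 not called at day 21, 60 had a 95% interval of the mean, from limma, that lay within 0.5 of 0 on either side. For the other 13 a larger difference was within the interval, and the outermost bounds, -0.73 and 1.17, were those of Cyp7b1. Cyp7b1, which makes oxysterols into bile acid precursors, measured 3.03 on day 4 array 2, -0.01 and -0.06 on the other arrays of that day, and 1.04 on day 8 array 3. Cyp2j5, an epoxygenase of kidney and liver, measured -1.79 on day 4 array 1 and from -0.44 to 0.11 on the other arrays. Cyp2d10 measured -1.03 on day 4 array 2 and -0.77 on day 21 array 2. Among the 71 members without a call, 15 single values reached 0.8 in size, and 11 of them lay on day 4 arrays, 6 on array 2 alone. No feature was called at day 4, so members were left out of this group by calls on later days only. The share of all features at that size is not given here. The 65 members not named by the rule for named genes had day means between -0.41 and 0.40.

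**Figure D4:**
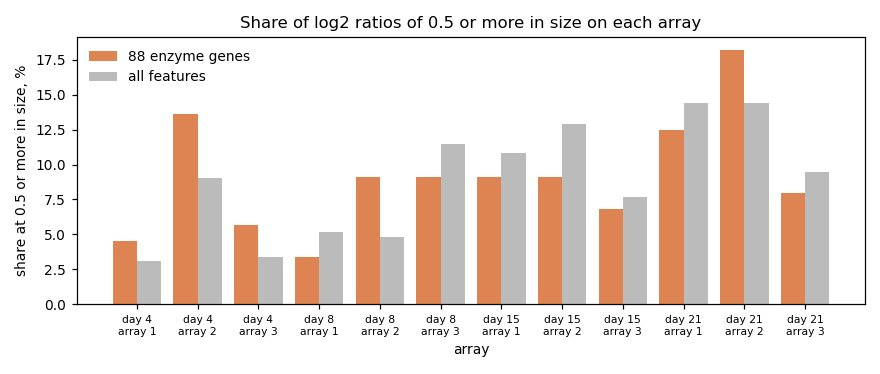
Share of log2 ratios of at least 0.5 in size (vertical axis, percent) on each array, for the 88 enzyme genes and for all 10689 features. Among enzyme genes the share is 13.6% on day 4 array 2, against 4.55% and 5.68% on the other arrays of that day, and highest, 18.2%, on day 21 array 2. Over all features the same arrays hold 9.05%, 3.12%, 3.38% and 14.4%.

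Other genes of these pathways were counted from lists, beside 8.78% of all features called higher and 9.93% lower at day 21. Of 21 measured genes of glutathione supply and other conjugation, 6 were called higher and none lower at day 21, and the median was 0.04 (0.00 over all features). Among them were Ugdh (0.94 ± 0.31, adjusted p = 0.00242), which makes the glucuronic acid donor, and the microsomal glutathione transferases Mgst3 (0.81 ± 0.11, adjusted p = 0.00117) and Mgst1 (0.54 ± 0.19, adjusted p = 0.00133). Of 24 other oxidising and hydrolysing enzymes 4 were higher and 3 lower: the flavin monooxygenase Fmo1 rose by 1.43 ± 1.15 (adjusted p = 0.0124), and the epoxide hydrolase Ephx2 (-1.05 ± 0.61, adjusted p = 0.00542) and the carboxylesterase Ces1d (-0.86 ± 0.20, adjusted p = 2.43e-04) fell. Of 19 transporters none was higher and 2 were lower, with the glutathione conjugate exporter Abcc1 at -0.56 ± 0.24 (adjusted p = 0.00361).

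Of 18 measured receptors and regulators of these enzymes, 1 was called at day 21, the nuclear receptor Nr5a2 (-0.44 ± 0.06, adjusted p = 0.04). Nfe2l2, the activator of antioxidant genes, stood at 0.23 ± 0.08 (adjusted p = 0.163). Of 19 genes of steroid hormone synthesis and breakdown outside the Cyp family, 3 were higher, with the steroid dehydrogenases Hsd17b2 at 1.44 ± 0.41 (adjusted p = 0.00447) and Hsd11b2 at 1.03 ± 0.21 (adjusted p = 3.66e-04). Of 12 cholesterol synthesis genes 3 were lower, with Idi1 at -0.62 ± 0.30 (adjusted p = 0.00117), Msmo1 at -0.56 ± 0.47 (adjusted p = 0.0356) and Fdps at -0.45 ± 0.15 (adjusted p = 0.0194). Of 14 retinoid handling genes 5 were higher and 3 lower. The largest means were those of Ttr, a carrier of retinol and thyroid hormone in plasma and also in the liver marker list (3.26 ± 0.50, adjusted p = 0.00336), the cellular retinol carrier Rbp2 (0.74 ± 0.39, adjusted p = 0.00167) and the carotene-cleaving enzyme Bco1 (-0.64 ± 0.38, adjusted p = 0.0256).

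Cell type markers moved over the same days. The list median of visceral endoderm and liver markers on the 3 arrays was -0.02, -0.06 and 0.19 at day 4, 0.02, 0.48 and 0.92 at day 8, 1.21, 1.03 and 0.42 at day 15, and 1.26, 1.28 and 0.77 at day 21. Markers of mesenchyme and fibroblasts had 8 of 10 higher and 1 lower at day 21, with a median of 1.34, heart muscle had 3 of 5 higher, and blood 0 of 4. Neural markers had 1 of 6 lower at day 21. Of the 3 measured markers of steroid-making glands none was called, and Star stood at 0.03 ± 0.21 at day 21. In RNA of mixed cells, fewer cells of a type and less RNA per cell cannot be told apart. The part of these cell types in the enzyme ratios was not tested.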

How the data were processed

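Log ratios of 12 arrays of 2 channels were taken from the deposited value table. The deposited values, read here as log2 ratios, are log ratios normalized by the authors, per the labels' sample descriptions, by an unnamed method. The log base is assumed to be 2, and the scanner and background correction were not given in the sources used here. The 12 columns had medians from -0.0018 to 0.0106 over 11520 probes. Only 3 arrays a day limit the precision, and depth does not apply.

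Probes were named through GEO's platform annotation, where 10043 had 1 symbol, 29 several and 1448 none. After averaging the probes of each gene there were 9212 genes and 10689 features. All 88 members had 1 probe, and their Entrez IDs matched the same symbols in RefSeq's table of GRCm38.p6. Features were tested with limma 3.58.1 (R 4.3.3), with 1 mean for each day over all 12 arrays and 8 residual degrees of freedom. The test of a day was against 0, so the ES channel counts as 1 control and its own spread is left out. Dyes were not swapped, and gene-specific dye effects remain in the ratios. Contrasts and a moderated F-test compared days, two-sided, with Benjamini-Hochberg adjustment over all features within each comparison and a threshold of 0.05. The test was also run on simulated arrays with known shifts and independent noise for each feature. That simulation held no array sets and no dye effects, so it does not show how the test performs on these arrays. Errors after ± are standard deviations over 3 arrays.

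The members, lists and tests were chosen with earlier results of these data known. Named members are those called on any day or by the F-test, the 5 largest means among the rest, and 1 gene of a family not yet named. Other members and Star are given for their role, chosen after their values were seen, and up to 3 genes of each pathway list were named by the size of their day 21 mean. Array sets come from the first principal component of probes with no symbol, which held 35% of their variance. Promoters were read from RefSeq's table. Alternatives were leaving out each array, the replicate number as a block, other normalizations, array weights, the array set as a term, single probes and fits of fewer arrays. Plots were drawn with matplotlib 3.10.9.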

Additional observations from a re-analysis of the deposited data

Results flagged for a closer look

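The ratio to ES cells differed between time points, by a test of the difference itself, for 5 glutathione transferase genes. These were 5 of 88 members from day 4 to day 21, beside 5.84% of all features. After quantile normalization and after scaling only Gsta4 kept that call. From day 4 to day 21 the difference was 1.55 for Gstm1, 0.72 for Gstm2 and 0.63 for Gsta3. All 3 arrays of day 21 lay above all 3 of day 4 for each, as for 12.6% of all features. The difference was -1.38 for Gsta4 and -0.75 for Gstp1, with all arrays of day 21 below those of day 4, as for 12.2% of all features. Over the 4 days the adjusted p of limma's F-test was 3.23e-04 for Gsta4, 0.0107 for Gstp1 and 0.0348 for Gstm1. Of these 3 only Gsta4 kept that call after quantile normalization, and Gstm1 lost it after scaling too. Without 1 array at a time the F-test call held in 4 of 12 fits for Gstm1 and in all 12 for Gsta4 and Gstp1. The F-test called 2.9% of all features. Groups of 3 arrays were too small for a search for single outlying samples.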

How the results depend on the processing

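Counts of called members depended on the setting. The share of all features called under each setting is not given here, so these counts are not set against the whole array. After quantile normalization the count was 1 at day 4, 4 at day 8, 4 at day 15, 7 at day 21, 1 for any difference between days and 1 for day 21 against day 4. After scaling it was 1 at day 4, 4 at day 8, 8 at day 21 and 1 for day 21 against day 4. With array weights it was 2 at day 4, 8 at day 8, 25 at day 15, 12 for any difference between days, 10 for day 21 against day 4 and 6 for day 15 against day 8. With the array set as a term it was 1 at day 4. In a fit of only the days compared it was 0 at day 8, 2 at day 15 and 9 at day 21. Chosen after seeing the data, the 7 arrays of the first set alone gave 0 at day 8, where 1 array was left, 11 at day 15, 5 for any difference between days and 1 for day 15 against day 8. The 5 arrays of the second set, with 1 residual degree of freedom, gave 0 at day 15, 2 at day 21, 0 for any difference between days and 0 for day 21 against day 4. Without 1 array at a time the count ran from 0 to 4 at day 8, 2 to 8 at day 15, 5 to 19 at day 21, 2 to 5 for any difference between days, 2 to 8 for day 21 against day 4 and 0 to 1 for day 15 against day 8. Of the 15 calls at day 21, 14 were shared with the array set as a term, 8 after scaling and 7 after quantile normalization. Those of Cyp2b19, Cyp3a13, Cyp4a10, Cyp4a14, Cyp4f14, Gstm6 and Gstt2 were lost under both normalizations, and that of Aldh2 after quantile normalization. Those of Gstm1, Gstm2, Gsta3, Gsta4 and Sult1c2 held without each of the 12 arrays. The cause of these differences was not tested. At day 21 Gstk1 ran from -0.139 to 0.0372 and Ugt8a from -0.0854 to 0.0319 without 1 array at a time, and Ugt8a was 0.0715 in the second set, none of them called. With the replicate number as a block the count of members called at day 21 was 14 in place of 15, and 7 at day 15, 6 of them shared. Of named members, Cyp3a13 lost both calls under the block (adjusted p = 0.056 and 0.0573), while Cyp4a14 was called at day 15 (0.0353) and Gsta3 for any difference between days (0.0388). Deviations from the day means correlated from -0.14 to 0.39 over 18 pairs of same-numbered arrays. Over 36 pairs with other numbers the range was -0.32 to 0.19. Same-numbered arrays did not all deviate together, yet their highest correlation exceeded that of the other pairs. A correlation over 0.1 was found for 8 of the 18 same-numbered pairs and 5 of the 36 others. The highest, 0.39, was between array 3 of day 15 and array 3 of day 21. Array 3 of every day is in the second set, so number and array set overlap in part. Whether the number marks a pairing is therefore not settled, and the main fit leaves it out. Signal over background was not used here and limits what a ratio near 0 can show.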

Other observations

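Some members without a call had a large ratio on a single array of day 4. Array 2 of that day was wide over all features as well, with 9.05% of ratios at 0.5 or more in size against 3.12% and 3.38% on arrays 1 and 3. Cyp11a1 measured 0.92 on day 4 array 2 and -0.18 and -0.11 on the other arrays of that day, and Sult1e1, which sulfates estrogen, 0.86 against -0.01 and -0.06. Cyp27b1 measured -0.84 on array 1, and Cyp39a1, Cyp2d13 and Cyp3a11 measured -0.88, -0.91 and -0.84 on array 3. Outside day 4, Cyp2j9 measured 0.84 on day 21 array 3 and Gstt3 0.84 on day 8 array 3, both of the second set.

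In the RefSeq gene order Gsta2 lies next to Dppa5a, an ES cell gene. At day 21 Gsta2 was higher by 0.37 ± 0.21 (limma adjusted p = 0.00975), and Dppa5a was lower by -2.14 ± 0.18 (adjusted p = 1.33e-06), so the neighbours moved in opposite directions. The pair was chosen after its values were seen.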
